A study of Drosophila melanogaster with 12 samples.

Results

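The genes described here store, release and move sugar in the larval fat body of Drosophila melanogaster, and they were taken by name from the deposited table. The list comprised Tps1 (FBgn0027560), Treh (FBgn0003748), GlyP (FBgn0004507), CG33138 (FBgn0053138), Tret1-1 (FBgn0050035), Tret1-2 (FBgn0033644), UGP (FBgn0035978), CG9485 (FBgn0034618) and glycogen synthase, which the table lists as CG6904 (FBgn0038293). All 9 were measured, among 10047 genes in all, and none was lost to the filter on low values. Fat body RNA came from female larvae collected at the wandering stage that closes larval life. The control larvae, whose library titles name the genotype vw1118 (spelled vvw1118 for 1 library), descended from males of the VDRC stock 60000, and the others from males of the VDRC stock 37058, which carries UAS-EcR RNAi against the ecdysone receptor. Both kinds of male were crossed to virgin females with UAS-Dcr2 on the X chromosome and r4-GAL4, so the controls also carry Dcr2 and the driver. GAL4 is expressed under r4 in the fat body, and added Dcr2 makes RNAi more effective. Larvae of each genotype ate semi-defined food with 0.15 M sucrose or with 0.5 M sucrose, a high-sugar diet. Each of the 4 groups had 3 libraries. The labels do not say how many larvae went into a library or whether libraries of a group came from separate crosses, so the tests measure the spread between these libraries, which may be technical.

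The fat body of the fly combines tasks that the liver and fat tissue carry out in mammals. It lays down glycogen as a glucose store, and it makes trehalose, a sugar of paired glucose units that is the main circulating sugar of insects. UGP makes UDP-glucose, the donor that both glycogen synthase and trehalose-6-phosphate synthase (Tps1) use. Glycogen synthase lengthens the chains and the branching enzyme (CG33138) adds branch points, while glycogen phosphorylase (GlyP) and the debranching enzyme (CG9485) take the polymer apart. Trehalase (Treh) splits trehalose into glucose, and Tret1-1 is a trehalose transporter with Tret1-2 as its close paralogue.

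Values are a normalised signal per gene and library. The sources used here do not describe a division by gene length, so levels are compared between libraries and not between genes. Its sum ran from 8864826 to 10966639 in 11 libraries and reached 15045575 in control replicate 1 on 0.5 M sucrose. That library also had the smallest relative library size recovered from the steps of its low values (0.634, against 0.900 to 1.29 in the others) and lay farthest from its group mean (root mean square deviation of 0.415 on the log2 scale, against 0.279 to 0.361). It was the highest of the 3 control libraries on 0.5 M sucrose for 8 of the 9 genes. EcR itself, the target of the RNAi, did not differ detectably, with a log2 difference of -0.28 on 0.15 M sucrose (95% interval -0.65 to 0.08; limma, Benjamini-Hochberg adjusted p = 0.386) and -0.06 on 0.5 M sucrose (-0.43 to 0.30; adjusted p = 0.847). The groups are therefore called here the libraries labelled EcR RNAi and the controls. Each of the 9 fat body markers was detected in every library, with Lsp2, a larval serum protein, between 589580 and 1303500 and vkg, a collagen, between 1969.6 and 6368. Bulk signal cannot tell fewer cells of a type from less RNA per cell.

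Genes typical of other tissues also gave signal in these libraries, and the source of that RNA was not tested. The summed signal of 15 muscle genes ran from 21617 to 47389 in controls and from 9082 to 30147 in libraries labelled EcR RNAi on 0.15 M sucrose, and from 28842 to 45026 and from 40302 to 83661 respectively on 0.5 M sucrose. Act88F, the flight muscle actin, lay between 0.495 and 16.2. The 7 salivary gland genes summed to between 20199 and 23820 in controls and between 1320 and 3845 in libraries labelled EcR RNAi on 0.15 M sucrose, and to between 7251 and 31278 and between 1900 and 6949 on 0.5 M sucrose. All 7 were called lower on 0.15 M sucrose, against 5.01% of all genes, and 4 on 0.5 M sucrose, against 8.11%. The 7 hemocyte genes summed to between 6874 and 7493 in controls and between 13659 and 15027 in libraries labelled EcR RNAi on 0.15 M sucrose, and to between 10381 and 12022 and between 16352 and 19964 on 0.5 M sucrose. Of these Pxn and Cg25C were called higher on each diet, against 6.19% of all genes on 0.15 M and 10.9% on 0.5 M sucrose. Cg25C is also on the fat body list. Hml, nimC1, He, eater and Sr-CI, the other 5, were called on neither. The 8 nervous system and glia genes summed to between 4363 and 5050 in controls on 0.15 M sucrose. In libraries labelled EcR RNAi on that diet the sum was between 5887 and 6499. On 0.5 M sucrose these ranges overlapped. On 0.15 M sucrose 1 of the 8 was called higher and 1 lower, against 6.19% and 5.01% of all genes. The median log2 difference of the 8 was 0.0015 there, and Syt1 alone lay between 2912 and 6647 over all libraries. The summed ranges of the 10 midgut genes overlapped on both diets. The summed signals of salivary gland and hemocyte genes thus differed between the genotype labels on each diet, and those of nervous system and glia genes on 0.15 M sucrose. Such sums rest most on the genes of highest signal and do not show a difference of a whole tissue. The part of these tissues in the differences below was not tested.

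Between the genotype labels, the calls among the 9 genes fell on Tps1, CG33138, UGP and CG6904, enzymes of synthesis. Tps1, CG33138 and UGP rose on 0.15 M sucrose, 3 of 9 genes, where 6.19% of all genes were called higher, 5.01% lower and 11.2% in either direction at an adjusted p under 0.05. Tps1, CG33138 and CG6904 rose on 0.5 M sucrose, again 3 of 9, where 10.9% of all genes were called higher, 8.11% lower and 19.1% in either direction. By limma 0 of 9 were called lower on either diet, while 2 of 9 (GlyP and Tret1-1) on 0.15 M and 1 of 9 (Treh) on 0.5 M sucrose were lower at an unadjusted p under 0.05. In either direction 6 of 9 and 5 of 9 were under that threshold, against 2219 and 3063 of all 10047 genes. With limma voom or with library weights 1 of 9, Tret1-1, was called lower on 0.15 M sucrose and 0 on 0.5 M sucrose. The median log2 difference of the 9 was -0.01 on 0.15 M sucrose (all genes 0.04) and 0.46 on 0.5 M sucrose (all genes 0.00). In 4 of 9 genes on each diet the 3 values of the EcR RNAi label exceeded every control value, and in 1 of 9 they fell short of every control value. Over all genes these shares were 15.5% above and 12.5% below on 0.15 M sucrose, and 19.5% above and 16.1% below on 0.5 M sucrose.

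The high-sugar diet was compared with the other diet within each genotype label. In controls 1 of 9 was called, CG33138, which rose, where 1.55% of all genes were called higher, 0.169% lower and 1.72% in either direction. In 7 of 9 the 3 control libraries on 0.5 M sucrose lay above the 3 on 0.15 M sucrose and in none below, while 10.2% of all genes lay above in this way and 7.76% below. In libraries labelled EcR RNAi 5 of 9 were called and all of these rose (Tps1, GlyP, CG33138, Tret1-1 and CG6904), where 14% of all genes were called higher, 10.4% lower and 24.4% in either direction. There 6 of 9 did not overlap in the higher direction and none in the lower, against 24.5% and 20.2% of all genes. The median log2 difference of the 9 was 0.57 in controls (all genes -0.01) and 0.60 in the libraries labelled EcR RNAi (all genes -0.02). Upper quartile scaling moved the median of all genes in the latter comparison to -0.23 and called 773 genes higher and 1792 lower, in place of 1406 and 1045; Tps1, GlyP, Tret1-1 and CG6904 stayed called under it. These comparisons share libraries with those of the genotype labels and are not independent of them.

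**Figure D1:**
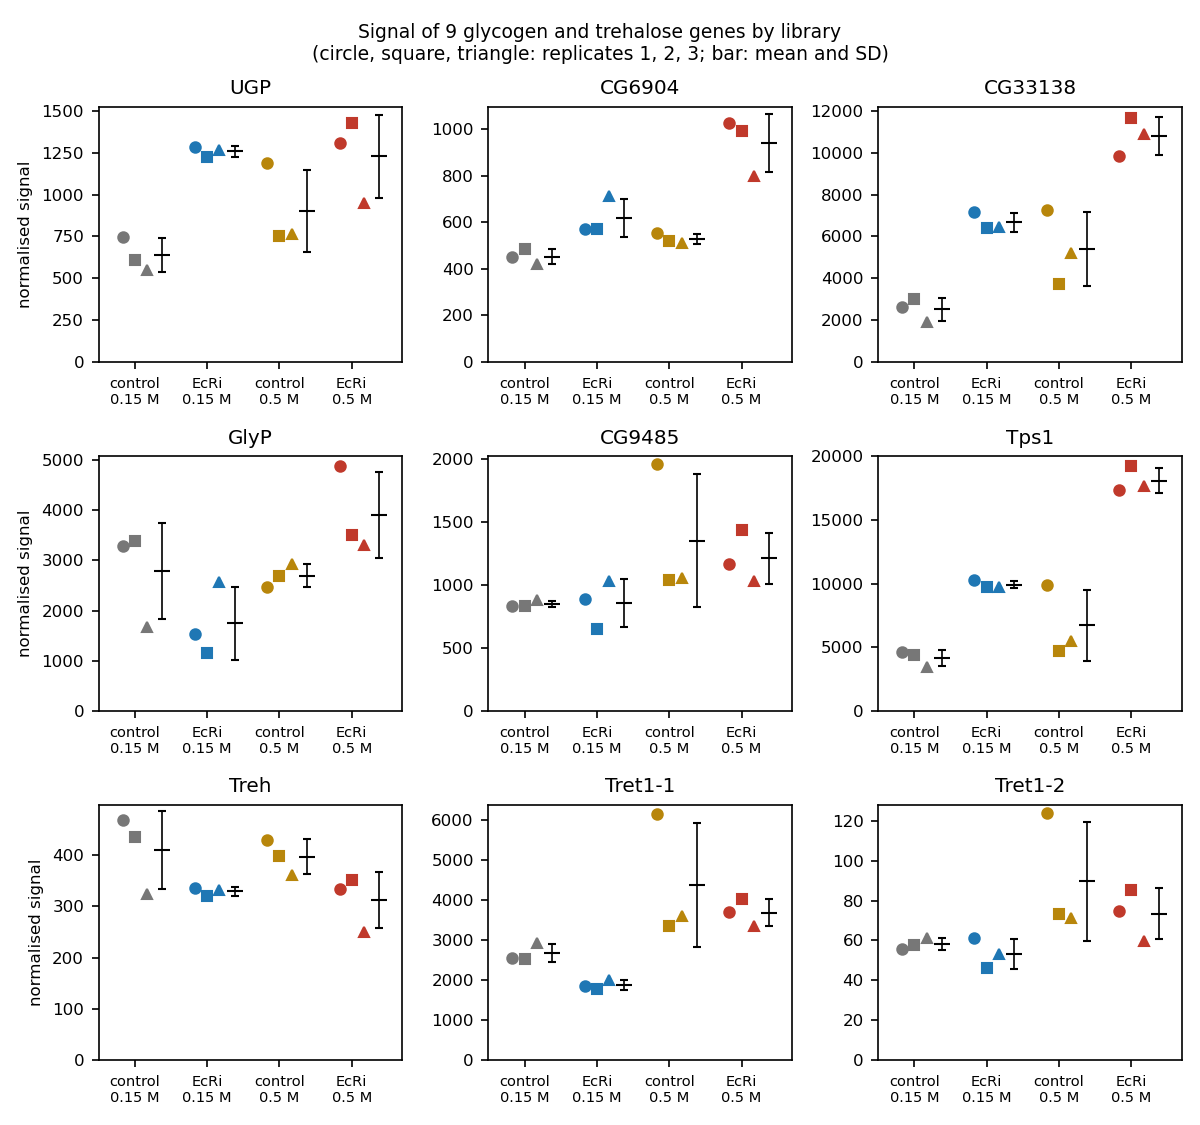
Normalised signal (vertical axis, linear, from 0) of the 9 genes in each library, with circle, square and triangle for replicates 1, 2 and 3 and a bar for the group mean and SD (n = 3). Tps1 and CG33138 were highest in libraries labelled EcR RNAi on 0.5 M sucrose, and the circle of the 0.5 M control group stands above its squares and triangles in 8 panels.

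The supply of UDP-glucose comes first. UGP signal was 749, 609.6 and 551 in controls and 1285, 1223 and 1267 in libraries labelled EcR RNAi on 0.15 M sucrose. On 0.5 M sucrose it was 1188, 755 and 763 in controls and 1311, 1425 and 952 under the EcR RNAi label. The groups were apart on 0.15 M sucrose, whereas on 0.5 M sucrose the groups overlapped, since control replicate 1 lay above replicate 3 of the other group. UGP rose on 0.15 M sucrose, from 636 ± 102 to 1258 ± 31.7 (mean ± SD, n = 3), a log2 difference of 0.99 ± 0.20 (SE; limma, Benjamini-Hochberg adjusted p = 0.00224). The log2 difference on 0.5 M sucrose was 0.46 ± 0.20 and did not pass the test (limma, adjusted p = 0.121). It passed in 4 alternatives, at 0.63 by voom (adjusted p = 0.0115), 0.68 with library weights (0.000537), 0.67 without control replicate 1 (0.0113) and 0.63 without replicate 3 of the EcR RNAi label (0.0499). Voom also moved the median of all genes in this comparison, from -0.002 to 0.20. The diet difference was 0.48 ± 0.20 in controls (limma, adjusted p = 0.284) and -0.05 ± 0.20 in the libraries labelled EcR RNAi (0.869), where the values of both diets overlapped. PGRP-LF, a gene that overlaps UGP in the Release 6 annotation, was also higher on 0.15 M sucrose (log2 difference 1.47, limma, adjusted p = 0.0271), at a mean signal of only 17.7, and it is not known how the counting split such reads.

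Glycogen synthase (CG6904), the chain-lengthening enzyme, had a signal of 451, 486 and 421 in controls and 573, 571 and 713 in libraries labelled EcR RNAi on 0.15 M sucrose. With 0.5 M sucrose the values were 554, 522 and 512 in controls and 1027, 994 and 799 under the EcR RNAi label. The 4 groups did not overlap anywhere, and their order from low to high was controls on 0.15 M, controls on 0.5 M, the EcR RNAi label on 0.15 M and the EcR RNAi label on 0.5 M sucrose. The gene rose under the EcR RNAi label on 0.5 M sucrose, from 529.5 ± 22.1 to 939.9 ± 123, a log2 difference of 0.82 ± 0.14 (limma, adjusted p = 0.000598). On 0.15 M sucrose the difference of 0.44 ± 0.14 did not pass the test (limma, adjusted p = 0.0588), and it passed after upper quartile scaling (0.0203), after quantile normalisation (0.0114), with library weights (0.0347) and without control replicate 1 on 0.5 M sucrose (0.0350). It rose with sugar in the libraries labelled EcR RNAi, by 0.60 ± 0.14 (limma, adjusted p = 0.00712, and 0.0959 after quantile normalisation), and the difference in controls was 0.23 ± 0.14 (0.493).

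CG33138, the branching enzyme, was at 2615, 3022 and 1919.8 in controls and 7191, 6412 and 6434 in libraries labelled EcR RNAi on 0.15 M sucrose. In larvae on 0.5 M sucrose it was at 7267, 3749 and 5216 in controls and 9829, 11643 and 10884 under the EcR RNAi label. Only controls on 0.5 M sucrose and the EcR RNAi label on 0.15 M sucrose overlapped. It was the sole gene of the 9 called in all 4 pairwise comparisons. Under the EcR RNAi label it rose 2.69-fold on 0.15 M sucrose (log2 1.43 ± 0.23; limma, adjusted p = 0.000349) and 2.06-fold on 0.5 M sucrose (log2 1.04 ± 0.23; adjusted p = 0.00363). With sugar it rose by 1.08 ± 0.23 on the log2 scale in controls (limma, adjusted p = 0.0226) and by 0.69 ± 0.23 in the libraries labelled EcR RNAi (adjusted p = 0.0378). Both diet calls were lost in several alternatives. In controls limma's adjusted p was 0.174 with only those 2 groups in the fit, 0.0546 without replicate 1 or 0.126 without replicate 3 on 0.15 M sucrose, and 0.0769 without replicate 3 on 0.5 M sucrose. In the libraries labelled EcR RNAi it was 0.106 after upper quartile scaling and lay above 0.05 when any of the 6 libraries was left out.

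**Figure D2:**
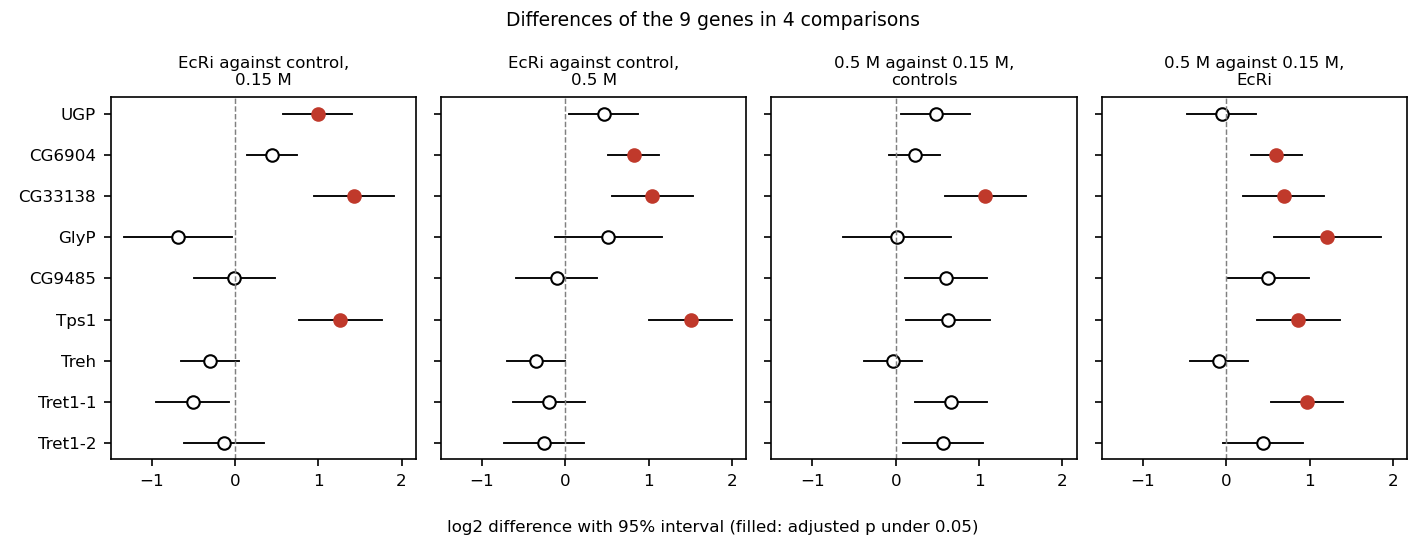
Log2 differences of the 9 genes (rows) in 4 comparisons (panels), with 95% intervals from limma as lines; filled points have an adjusted p under 0.05 over all 10047 genes. CG33138 is filled in every panel, Tps1 in 3, and no point to the left of 0 is filled.

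GlyP and CG9485 are the breakdown enzymes among the 9. GlyP, the phosphorylase, was at 3291, 3385 and 1675 in controls and 1529, 1156 and 2562 in libraries labelled EcR RNAi on 0.15 M sucrose. On 0.5 M sucrose it was at 2464, 2682 and 2925 in controls and 4883, 3502 and 3306 under the EcR RNAi label. Replicate 3 of each 0.15 M group stood apart from the other members of its group, low in the controls and high under the EcR RNAi label. GlyP rose with sugar in the libraries labelled EcR RNAi, by 1.21 ± 0.30 on the log2 scale (limma, adjusted p = 0.0105), a call lost after quantile normalisation (0.0558) and without replicate 2 on 0.15 M (0.0517) or replicate 1 on 0.5 M sucrose (0.0525). In controls the diet difference was 0.02 ± 0.30 (95% interval -0.63 to 0.66; limma, adjusted p = 0.988). Between genotype labels it was -0.68 ± 0.30 on 0.15 M sucrose (limma, adjusted p = 0.196) and 0.52 ± 0.30 on 0.5 M sucrose (0.271), so no test was passed on either diet, although the 3 values on 0.5 M sucrose all lay above the controls. Without replicate 3 of the controls or of the other group on 0.15 M sucrose, GlyP was called lower there (limma, adjusted p = 0.0307 and 0.0373).

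The libraries low in GlyP were also low in muscle genes. The 15 muscle genes summed to 44339.8, 47389 and 21617 in controls and to 17132, 9082 and 30147 in libraries labelled EcR RNAi on 0.15 M sucrose. On 0.5 M sucrose the sums were 28842, 40105 and 45026 in controls and 83661, 40302 and 43332 in libraries labelled EcR RNAi. The 6 libraries with the lowest GlyP signal were the 6 with the lowest muscle sum, in the same order, and the library highest in GlyP was highest in muscle. The other 5 libraries did not keep the order: replicate 2 of the EcR RNAi label on 0.5 M sucrose ranked 11 of 12 from the lowest in GlyP and 7 of 12 in muscle. The genes nearest in profile to GlyP were Ca-P60A, the calcium pump of the sarcoplasmic reticulum, and Tm1, a tropomyosin, at root mean square differences of 0.150 and 0.160 on the log2 scale over 12 libraries. In the diet comparison of libraries labelled EcR RNAi, where GlyP was called, 9 of the 15 muscle genes also rose by limma. Of all genes 14% were called higher there. The muscle count was 1 of 15 by voom and 7 of 15 with library weights, and the median log2 difference of the 15 was 1.50. Of the 15, 0 were called in the other comparisons by limma, by voom or with library weights. At an unadjusted p under 0.05 the counts there were 5 of 15 between genotype labels on 0.15 M, 6 of 15 in the interaction and 0 of 15 in the other 2. Of all 10047 genes, 2219 were under that threshold between labels on 0.15 M sucrose and 2162 in the interaction. GlyP is expressed in muscle as well as in fat body, and the part of muscle RNA in its differences was not tested.

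CG9485, the debranching enzyme, was at 834, 833 and 878 in controls and 890.4, 653 and 1031 in libraries labelled EcR RNAi on 0.15 M sucrose. With 0.5 M sucrose it was at 1956, 1037 and 1051 in controls and 1161, 1432 and 1034 under the EcR RNAi label. Each genotype's libraries on 0.5 M sucrose lay above its own on 0.15 M sucrose, under the EcR RNAi label by as little as 1034 against 1031, and control replicate 1 stood far above the rest. No comparison was called: the log2 difference was 0.60 ± 0.23 (limma, adjusted p = 0.254) with sugar in controls and 0.51 ± 0.23 (0.1198) under the EcR RNAi label, the latter called without control replicate 1 on 0.5 M sucrose (0.0276), by voom and with library weights. Between genotype labels it was -0.01 ± 0.23 (95% interval -0.50 to 0.48) on 0.15 M and -0.10 ± 0.23 (-0.59 to 0.38) on 0.5 M sucrose, and the libraries of both labels overlapped on each diet.

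**Figure D3:**
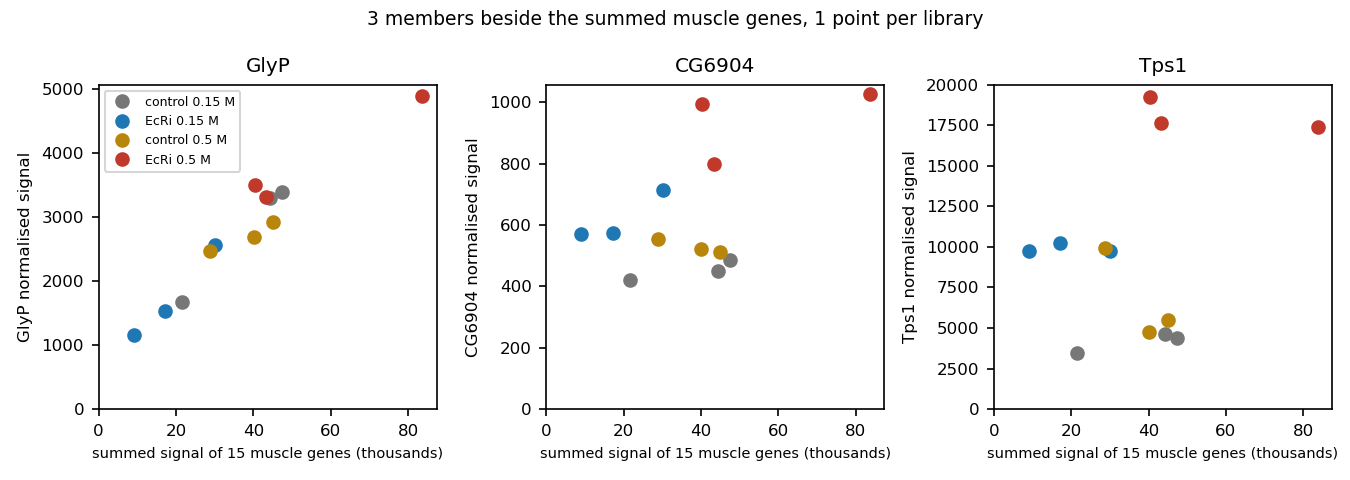
Normalised signal of GlyP, CG6904 and Tps1 (vertical axes) against the summed signal of 15 muscle genes (horizontal axes), with 1 point per library coloured by group. GlyP was lowest, at 1156, where the muscle sum was 9082 and highest, at 4883, where it was 83661, and the points between do not all follow the sum, while Tps1 was at 9765 in the library with the lowest sum and at 3448 in control replicate 3 on 0.15 M sucrose.

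Trehalose synthesis and cleavage come next. Tps1 was at 4638, 4386 and 3448 in controls and 10249, 9765 and 9744 in libraries labelled EcR RNAi on 0.15 M sucrose. In larvae on 0.5 M sucrose the values were 9922, 4743 and 5485 in controls and 17369, 19227 and 17667 under the EcR RNAi label. The genotype labels were apart on each diet, the EcR RNAi label being higher, and its libraries on 0.5 M sucrose exceeded the other 9. Tps1, the enzyme of trehalose synthesis, rose 2.40-fold under the EcR RNAi label on 0.15 M sucrose (log2 1.27 ± 0.24; limma, adjusted p = 0.00136) and 2.84-fold on 0.5 M sucrose (log2 1.50 ± 0.24; adjusted p = 0.000214). With sugar it rose from 9919 ± 286 to 18088 ± 998 in these libraries, by 0.87 ± 0.24 on the log2 scale (limma, adjusted p = 0.0146; 0.0525 without replicate 2 on 0.15 M and 0.0510 without replicate 2 on 0.5 M sucrose). In controls the means were 4157 ± 627 and 6717 ± 2800.4 and the difference of 0.63 ± 0.24 did not pass the test (limma, adjusted p = 0.239). Without control replicate 1 on 0.5 M sucrose it was 0.31.

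Treh, which cleaves trehalose, was at 469.6, 436 and 324 in controls and 336, 320.1 and 332 in libraries labelled EcR RNAi on 0.15 M sucrose. On 0.5 M sucrose it was at 429.8, 399 and 362 in controls and 334, 352 and 251 under the EcR RNAi label. The 3 values of the EcR RNAi label lay below all controls on 0.5 M sucrose, and the groups overlapped on 0.15 M sucrose through control replicate 3. The genotype difference was -0.30 ± 0.16 (limma, adjusted p = 0.324) on 0.15 M and -0.36 ± 0.16 (0.152) on 0.5 M sucrose, and the test was passed on neither. The diet differences were -0.03 ± 0.16 in controls (95% interval -0.38 to 0.31) and -0.09 ± 0.16 under the EcR RNAi label (-0.44 to 0.26).

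Tret1-1, the trehalose transporter, was at 2540.2, 2529 and 2923 in controls and 1835, 1769.8 and 2008 in libraries labelled EcR RNAi on 0.15 M sucrose. With 0.5 M sucrose it was at 6143, 3350.0 and 3590.3 in controls and 3693, 4008 and 3334 under the EcR RNAi label. The EcR RNAi label lay below the controls on 0.15 M sucrose, and the groups overlapped on 0.5 M sucrose. Tret1-1 rose with sugar in the libraries labelled EcR RNAi, from 1871 ± 123 to 3678 ± 337, by 0.97 ± 0.20 on the log2 scale (limma, adjusted p = 0.00339). The difference in controls was 0.66 ± 0.20 (limma, adjusted p = 0.138), and 0.38 without control replicate 1 on 0.5 M sucrose. It was called higher with library weights (0.47, adjusted p = 0.0214) and without control replicate 2 on 0.5 M sucrose (0.82, limma, adjusted p = 0.0407). Between genotype labels it was -0.51 ± 0.20 on 0.15 M (limma, adjusted p = 0.142) and -0.19 ± 0.20 on 0.5 M sucrose (0.572). The former was called lower without control replicate 1 on 0.5 M sucrose (limma, adjusted p = 0.00824), by voom (0.00571), after quantile normalisation (0.0157), with library weights (0.0435) and with only those 2 groups in the fit (0.0268).

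Its paralogue Tret1-2 had a signal of 55.6, 57.8 and 61.3 in controls and 61.0, 45.9 and 53.2 in libraries labelled EcR RNAi on 0.15 M sucrose, and 124, 73.4 and 71.3 in controls and 74.7, 85.5 and 59.9 under the EcR RNAi label on 0.5 M sucrose. In controls the values on 0.5 M sucrose lay above those on 0.15 M sucrose, while the other pairs of groups overlapped except the EcR RNAi label on 0.15 M and controls on 0.5 M sucrose. It passed no test, and its largest difference was 0.57 ± 0.23, with sugar in controls (limma, adjusted p = 0.269). The 2 genes lie next to each other and are close paralogues, so the split of reads between them is uncertain, and both overlap Roc2 in the Release 6 annotation.

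The diet difference was also set against genotype in each gene. The interaction, the diet difference under the EcR RNAi label minus that in controls, was called in 0 of 9 genes by limma, against 2.59% of all genes higher, 1.33% lower and 3.92% in either direction. By limma voom and with library weights the count was also 0. At an unadjusted p under 0.05 it was 1 of 9, GlyP, against 2162 of 10047 genes. For GlyP the interaction was 1.20 ± 0.43 (limma, Benjamini-Hochberg adjusted p = 0.126), and it was called without control replicate 3 (0.0402) or without replicate 3 of the EcR RNAi label on 0.15 M sucrose (0.0418), the libraries that stood apart in muscle signal as well. For UGP it was -0.54 ± 0.28 (limma, adjusted p = 0.277), with -1.12 to 0.05 as the 95% interval. The intervals of the others were wide, -0.47 to 0.94 for Tps1, -1.07 to 0.30 for CG33138 and -0.06 to 0.81 for CG6904, so these data do not show whether sugar moved the genes alike in both genotypes.

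Ratios within a library compare the RNA signals of opposed enzymes, not the amounts or activities of the enzymes. They are given with no test, since they were formed after the values were seen, and their size carries no meaning across gene pairs. Tps1 to Treh was 9.88 to 10.6 in controls on 0.15 M sucrose, 11.9 to 23.1 in controls on 0.5 M, 29.3 to 30.5 under the EcR RNAi label on 0.15 M and 52.0 to 70.5 under that label on 0.5 M sucrose. These 4 ranges did not overlap. The annotated overlap of Treh with Rbpn-5, given above, applies here too. CG33138 to CG9485, branching to debranching, was 2.19 to 3.63 and 3.62 to 4.96 in controls on 0.15 M and 0.5 M sucrose, and 6.24 to 9.81 and 8.13 to 10.5 under the EcR RNAi label. The genotype labels were apart on each diet, and the diets overlapped within each label. CG6904 to GlyP, synthase to phosphorylase, was 0.137 to 0.251 and 0.175 to 0.225 in controls, and 0.278 to 0.494 and 0.210 to 0.284 under the EcR RNAi label. Only on 0.15 M sucrose were the labels apart, and GlyP carries the muscle parallel described above.

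**Figure D4:**
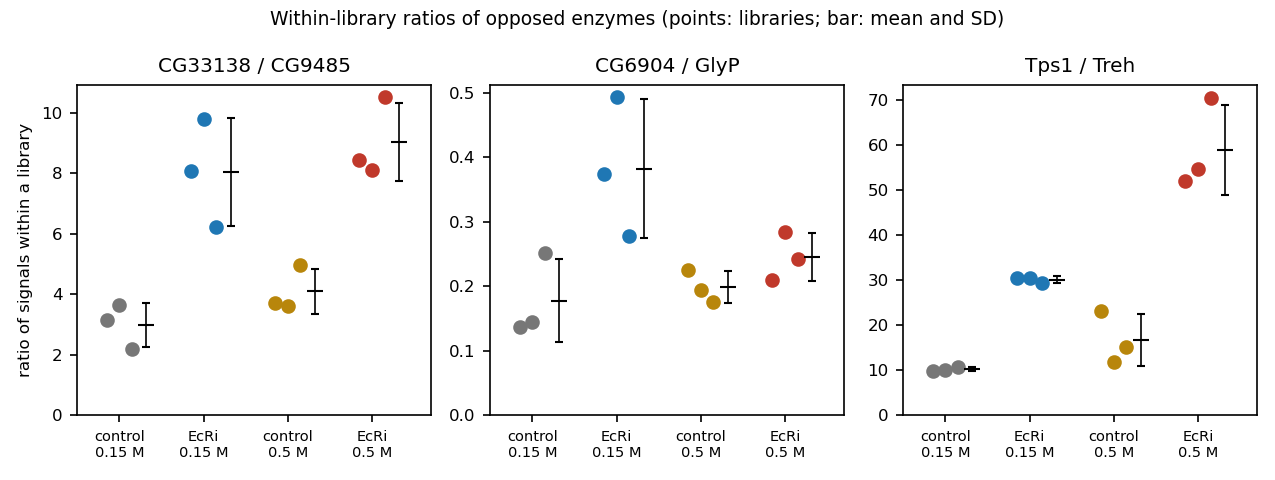
Ratios of signals within a library (vertical axes, linear, from 0) for CG33138 to CG9485, CG6904 to GlyP and Tps1 to Treh, with 1 point per library and a bar for mean and SD (n = 3). The Tps1 to Treh ratio separates all 4 groups, from 9.88 in the lowest library to 70.5 in the highest.

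Around these genes, 5 lists covered the rest of the pathway, and the lists contain the 9 genes themselves. The counts stand against shares of all genes called higher and lower of 6.19% and 5.01% between labels on 0.15 M, 10.9% and 8.11% between labels on 0.5 M, 14% and 10.4% with sugar under the EcR RNAi label and 1.55% and 0.169% with sugar in controls. Of 8 measured genes of glycogen synthesis, 2 were called higher and 1 lower under the EcR RNAi label on 0.15 M sucrose, with a median log2 difference of 0.17, and 3 higher and 0 lower on 0.5 M sucrose, with a median of 0.55. Beside the genes above, CG9238, a glycogen-targeting subunit of protein phosphatase, fell by 0.66 on the log2 scale on 0.15 M sucrose, and Gbs-76A, another such subunit, rose by 0.50 on 0.5 M sucrose (limma, Benjamini-Hochberg adjusted p = 0.0142 and 0.0408). With sugar, 6 of 8 rose in libraries labelled EcR RNAi (14% of all genes called higher) and 1 of 8 in controls (1.55%). In controls 3 of 8 had an unadjusted p under 0.05, against 1443 of 10047 genes, and voom and library weights each called 1. Those 6 included sgg, the glycogen synthase kinase (log2 0.78 ± 0.14), Gbs-76A (0.84 ± 0.16), Pgm, the phosphoglucomutase (0.73 ± 0.23), and Glycogenin, which primes glycogen (1.54 ± 0.44). The list holds regulators such as sgg beside enzymes, so its counts do not show a direction of glycogen synthesis. Of 21 alternatives, the call of Gbs-76A on 0.5 M sucrose was lost in 10, that of CG9238 in 4, and the diet calls of Glycogenin and Pgm in 8 and 7. Glycogenin was at 329, 225 and 610.4 on 0.15 M and 1457, 965 and 791 on 0.5 M sucrose in those libraries, and in controls at 919, 889 and 446 on 0.15 M and 453, 788 and 901 on 0.5 M sucrose. Like GlyP it was low where the muscle sum was low, and the part of muscle RNA in its rise was not tested.

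The alpha and beta subunits of phosphorylase kinase, which activates glycogen phosphorylase, differed in opposite directions between the genotype labels. CG8475, the beta subunit, had a signal of 1603, 1501 and 1785 in controls and 359, 443 and 475 in libraries labelled EcR RNAi on 0.15 M sucrose, and 2209, 1368 and 1495 in controls and 704, 700.1 and 698 under the EcR RNAi label on 0.5 M sucrose. It fell by 1.94 on the log2 scale on 0.15 M (SE 0.18; limma, adjusted p = 1.31e-06) and fell by 1.24 on 0.5 M sucrose (8.67e-05), with no overlap on either diet. CG7766, the alpha subunit, was at 931, 990.4 and 936 in controls and 1772, 1465 and 1701 under the EcR RNAi label on 0.15 M sucrose, and at 1569, 946 and 1080.1 in controls and 2574, 2757 and 2577 under the EcR RNAi label on 0.5 M sucrose. It rose by 0.78 ± 0.18 and 1.17 ± 0.18 (limma, adjusted p = 0.00611 and 0.000145). The catalytic subunit PhKgamma was called under neither comparison. With sugar all 3 subunits rose in the libraries labelled EcR RNAi, CG8475 by 0.73 ± 0.18, CG7766 by 0.68 ± 0.18 and PhKgamma by 0.49 ± 0.13 (limma, adjusted p = 0.00767, 0.0108 and 0.0150). The diet call of PhKgamma was lost in 4 of 21 alternatives, voom among them, and that of CG7766 in 1. Of 6 genes of glycogen breakdown, 1 was thus called higher and 1 lower under the EcR RNAi label on each diet, with medians of -0.34 on 0.15 M and 0.10 on 0.5 M sucrose. With sugar 4 rose and 0 fell under that label, against 0 of 6 in controls by limma (0 by voom and 1 with library weights). At an unadjusted p under 0.05 the count in controls was 2 of 6, against 1443 of 10047 genes.

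**Figure D5:**
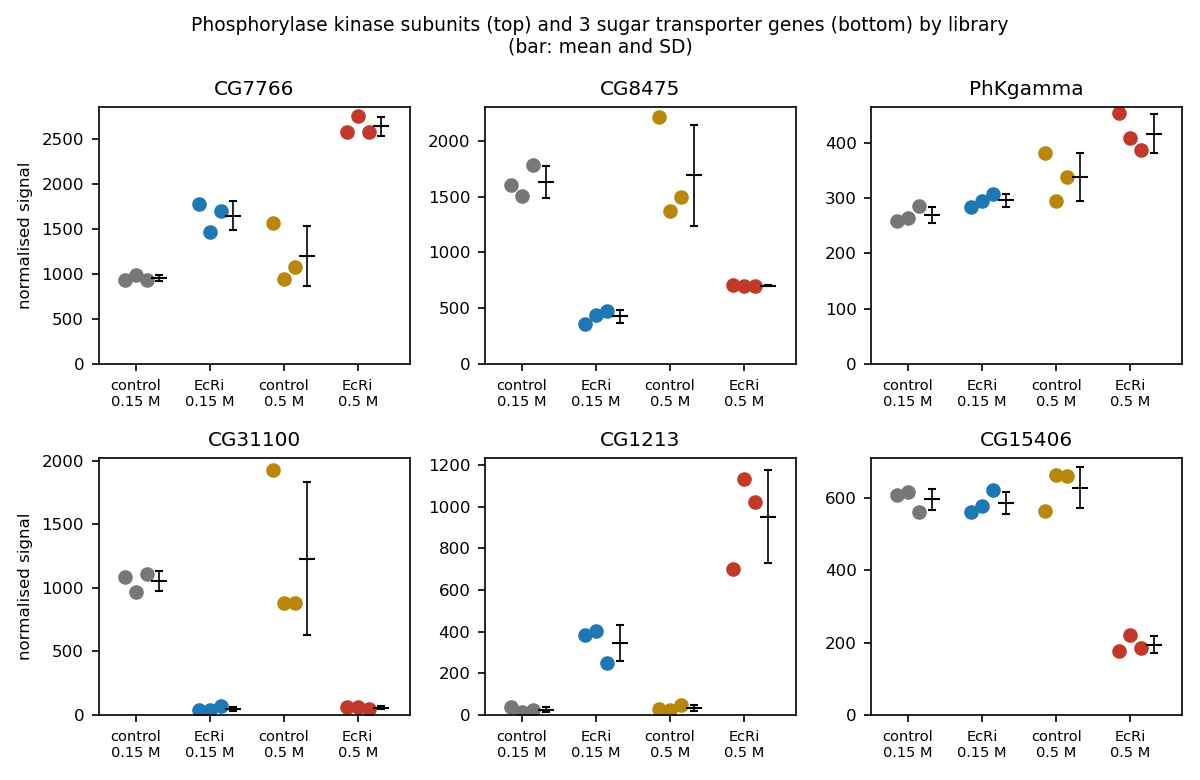
Normalised signal (vertical axes, linear, from 0) in each library of 3 phosphorylase kinase subunits and 3 predicted sugar transporters, with a bar for mean and SD (n = 3). CG8475 and CG31100 are low and CG7766 and CG1213 high under the EcR RNAi label on both diets, and CG15406 is low, between 176 and 222, in the libraries of that label on 0.5 M sucrose.

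Among 4 genes of trehalose synthesis and breakdown, Tps1 was the sole call in each comparison that had one. The table also held CG5171 and CG5177, predicted trehalose phosphatases. CG5177 was at 792, 377 and 313 in controls and 155, 157 and 328 under the EcR RNAi label on 0.15 M sucrose, and at 163, 766 and 512 in controls and 649, 475 and 406 under the EcR RNAi label on 0.5 M sucrose. Its values scattered within groups and it passed no test.

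Of 22 measured sugar transporter genes, 4 were called higher and 3 lower under the EcR RNAi label on 0.15 M sucrose (6.19% and 5.01% of all genes), and 4 higher and 9 lower on 0.5 M sucrose (10.9% and 8.11%), with medians of -0.05 and -0.22. With sugar, 3 rose and 6 fell under that label, and 0 of 22 were called in controls. In controls 10 of 22 had an unadjusted p under 0.05, against 1443 of 10047 genes, and 0 were called by voom and 4 with library weights. CG31100, a predicted transporter, was at 1088, 964 and 1105 in controls and 36.9, 38.4 and 68.3 under the EcR RNAi label on 0.15 M sucrose, and at 1925, 883 and 880.3 in controls and 65.6, 59.6 and 45.0 under the EcR RNAi label on 0.5 M sucrose. It fell by 4.49 on the log2 scale on 0.15 M and fell by 4.33 on 0.5 M sucrose (limma, adjusted p = 6.83e-07 and 6.63e-07). CG1213, another predicted transporter, was at 38.6, 13.6 and 22.5 in controls and 383, 405 and 249 under the EcR RNAi label on 0.15 M sucrose, and at 27.4, 23.4 and 48.1 in controls and 701, 1131 and 1023 under the EcR RNAi label on 0.5 M sucrose. It rose by 3.83 ± 0.37 and 4.85 ± 0.37 (limma, adjusted p = 1.85e-05 and 1.97e-06). CG1208 and sut1 were also higher on both diets, by 2.39 and 4.30 and by 1.40 and 0.995 on the log2 scale. CG15406 differed on 0.5 M sucrose, where it was at 563, 663 and 659.9 in controls and 176, 222 and 186 under the EcR RNAi label and fell by 1.69 on the log2 scale (limma, adjusted p = 2.46e-07), while on 0.15 M sucrose it was at 610.0, 617 and 563 in controls and 560.4, 577 and 621 under that label.

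Of 9 genes of hexose entry and hormone signalling, 1 was called higher and 1 lower under the EcR RNAi label on 0.15 M sucrose, and 4 higher and 1 lower on 0.5 M sucrose. Hex-C, a hexokinase that makes glucose-6-phosphate, the entry to both stores, was at 28.8, 21.2 and 26.6 in controls and 111, 100.4 and 101 under the EcR RNAi label on 0.15 M sucrose, and at 29.4, 24.5 and 22.0 in controls and 246, 164 and 144 under the EcR RNAi label on 0.5 M sucrose. It rose by 1.999 ± 0.22 and 2.79 ± 0.22 on the log2 scale (limma, adjusted p = 9.63e-06 and 2.46e-07). The transcription factor foxo, which insulin signalling holds out of the nucleus, fell by 0.72 and fell by 0.94 (limma, adjusted p = 0.00194 and 0.000142). In controls 0 of 9 were called with sugar by limma, 0 by voom and 1 with library weights. At an unadjusted p under 0.05 it was 2 of 9 there, against 1443 of 10047 genes. With sugar 5 of 9 rose and 0 fell in libraries labelled EcR RNAi. GRHR, the table's name for the receptor of adipokinetic hormone, which mobilises stores, was one of them, at 264, 253 and 298 on 0.15 M and 650.4, 636 and 497 on 0.5 M sucrose, a rise of 1.12 ± 0.23 (limma, adjusted p = 0.00327). In controls GRHR was at 339, 314 and 283 on 0.15 M and 895, 384 and 535 on 0.5 M sucrose.

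For each of the called genes the nearest profiles among 9118 genes with a mean signal of at least 10 were found as the root mean square difference of log2 values over 12 libraries, each gene centred on its own mean. This is a description of these libraries, and the points share their groups. CG33138 was closest to CG32191, at 0.0929, and to asparagine-synthetase, at 0.155, and both had their highest group mean under the EcR RNAi label on 0.5 M sucrose. Tps1 was closest to CG18067 (0.136) and to Vago (0.152), an antiviral secreted protein. CG6904 was closest to EDTP, a phosphatase (0.115), and to CG17002 (0.116). UGP had CLIP-190, a microtubule-binding protein (0.163), and alpha-Est7, an esterase (0.165), as its nearest, and Tret1-1 had CG9319 and yip2, a thiolase, at 0.139 each.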

How the data were processed

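The authors' single deposited table gives a normalised signal for 10047 genes in each of 12 libraries. Fat body was obtained by fine dissection, shearing and centrifugation, ribosomal RNA was removed with RiboZero and libraries were read on an Illumina HiSeq, per the labels' protocols. Bowtie 0.12.7, TopHat 1.3.2, edgeR and Cufflinks 1.1.0 are named, without roles, in the submitters' processing notes. Build, annotation, strand setting and how the signal was made are not given in the sources used here, so no coordinates are printed. The deposited signal behaved as reads adjusted to a common library size: rescaling by 1 recovered size per library made 85.3% to 100% of values between 5 and 40 whole within 0.05, too few in some libraries to treat as counts.

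A design written for counts foresaw a count model, and the path for normalised values was used instead. limma 3.58.1 (R 4.3.3) fitted log2(signal + 1) in 1 model of the 4 groups, with trended, robust empirical Bayes, over all genes with a mean of at least 1 (all 10047; lowest mean 1.67). Fold changes are on that scale, which understates changes of low genes. Genes were called at a Benjamini-Hochberg adjusted p under 0.05 over all genes, and intervals are 95%. The fit was also run on simulated counts, with changes set in 1 group and no library standing apart. That run does not bear on the calls in these data. Members, gene lists and tests were chosen with earlier results of these data known. Every member is named, with up to 6 called genes per wider list and comparison, smallest p first, and the 2 nearest profiles of each called member; CG5177, and uncalled values of genes so named, were added after their values were seen. Of the identifiers, 9605 matched a current symbol; CG6904 did not, and overlaps between genes come from the RefSeq Release 6 gene table. Alternatives changed the pseudocount (0.5, 5), the minimum mean (10), scaling, weights, the tool (voom), the groups fitted, a replicate block and each library in turn. No sequences are printed.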

Additional observations from a re-analysis of the deposited data

Results flagged for a closer look

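None of the 9 genes was called in the test of the interaction, and groups of 3 libraries were not searched for outliers. In the wider lists 4 genes were called in the interaction, 1 of 8 genes of glycogen synthesis (higher) and 3 of 22 sugar transporter genes (lower). Over all genes 2.59% were called higher and 1.33% lower. The interaction is the diet difference under the EcR RNAi label minus that in controls. For sgg, the glycogen synthase kinase, it was 0.78 (limma, Benjamini-Hochberg adjusted p = 0.0444): signal was 986, 903 and 1113 on 0.15 M and 1016, 997 and 995 on 0.5 M sucrose in controls, and 794, 658 and 736 on 0.15 M and 1427, 1195 and 1154 on 0.5 M sucrose under the EcR RNAi label. That call was lost in 15 of 20 alternatives. CG15406 had an interaction of -1.66 (limma, adjusted p = 0.000465) and kept it in all 20 alternatives. CG7882 had -2.22 (limma, adjusted p = 0.00168), also kept in all 20, with 187, 264 and 271 on 0.15 M and 417, 299.5 and 343 on 0.5 M sucrose in controls, and 249, 305 and 257 on 0.15 M and 69.7, 124 and 69.2 on 0.5 M sucrose under the EcR RNAi label. CG15408 had -1.38 (limma, adjusted p = 0.0210), lost in 4 of 20, with 169.7, 154 and 112 on 0.15 M and 122, 138 and 156 on 0.5 M sucrose in controls, and 115, 109.7 and 171 on 0.15 M and 40.4, 59.4 and 42.9 on 0.5 M sucrose under that label. CG15406, CG7882 and CG15408 are predicted sugar transporters, and in each the 3 values of that label on 0.5 M sucrose were under those of the other 9 libraries.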

How the results depend on the processing

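Of the 12 calls among the 9 genes, 7 stood in every alternative, and the other 5, all diet differences, are given with their losses above. Of 57 calls in the wider lists, 38 stood in every alternative. No called value changed sign. Values outside the calls changed sign near 0. For CG9485 between labels on 0.15 M sucrose these were 0.034 (upper quartile scaling), 0.028 (quantile normalisation) and 0.019 (library weights), with -0.15 to 0.18 when a library was left out, and on 0.5 M sucrose 0.20 (weights) and 0.058 (voom), with -0.26 to 0.20. On 0.5 M sucrose library weights gave 0.036 for Tret1-1 and 0.028 for Tret1-2, and leaving out a library gave -0.36 to 0.081 and -0.39 to 0.0044. With sugar in controls GlyP was -0.071 (upper quartile), -0.22 (quantile), -0.00068 (weights) and -0.25 (voom), with -0.31 to 0.19 when a library was left out, CG6904 was -0.038 (voom), and Treh ran from -0.19 to 0.075 when a library was left out. With sugar under the EcR RNAi label Treh ran from -0.19 to 0.059 and UGP from -0.17 to 0.12 when a library was left out. The interaction was 0.11 (weights) and 0.22 (voom) for Treh, 0.17 and 0.13 for Tret1-2, and 0.18 and 0.16 for CG9485, with -0.17 to 0.10, -0.26 to 0.14 and -0.28 to 0.21, in that order, when a library was left out.

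Counts of called genes moved more. Library weights, whose fit stopped before full convergence, called 3628 genes between labels on 0.5 M sucrose, 968 with sugar in controls and 1546 in the interaction. Voom called 97 with sugar in controls, 1297 with sugar under the EcR RNAi label and 256 in the interaction, and a fit of only 2 groups called 60 with sugar in controls. Leaving out a library gave 74 to 359 with sugar in controls (lowest without control replicate 3 on 0.15 M, highest without control replicate 2 on 0.5 M sucrose), 1355 to 2959 under the EcR RNAi label (without its replicate 1 on 0.5 M, and without control replicate 1 on 0.5 M sucrose) and 141 to 532 in the interaction (without the same 2 libraries). The share called higher moved with scaling: between labels on 0.5 M sucrose it was 57.4%, 46.7% after upper quartile scaling and 74.2% by voom, and in the interaction 66%, 39.9% and 80.9%. With sugar it was 90.2% in controls, 73.2% by voom and 64.7% with weights, and 57.4% under the EcR RNAi label, 30.1% after upper quartile scaling. Voom moved the median of all genes to 0.20 between labels on 0.5 M sucrose, -0.29 with sugar in controls and 0.24 in the interaction. Voom divides each library by its summed signal, which was 15045575 in control replicate 1 on 0.5 M sucrose and 8864826 to 10966639 in others. Upper quartile scaling multiplies each library by 1 factor. The part of such factors in these shifts was not tested.

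Replicate numbers did not pair the libraries: deviations of same-numbered libraries correlated between -0.196 and 0.165 (18 pairs, each across genes), others between -0.170 and 0.215 (36 pairs), and 2 of 12 libraries correlated best with their own number. With a replicate block the counts were 1047 and 1813 between labels on 0.15 M and 0.5 M sucrose, 171 and 2272 with sugar, and 260 in the interaction.

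With 3 libraries a group and no raw reads, standard errors of the 9 genes in pairwise comparisons lay between 0.14 and 0.30 on the log2 scale. Differences of that size were not detectable, and larger ones also went uncalled. Examples are -0.68 for GlyP between labels on 0.15 M sucrose (limma, adjusted p = 0.196) and 0.63 for Tps1 with sugar in controls (0.239). A gene that was not called is therefore not shown to be unchanged.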
